A study of Rattus norvegicus with 18 samples.

Results

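The comparison described here set 6 rats kept on a chronic ethanol diet against 6 rats kept on control diet, by RNA-Seq of the dorsal hippocampus. Both groups were chosen by the treatment in the sample labels, and they make up 12 of the 18 rats of the study, the other 6 being rats withdrawn from ethanol. All animals were adult male Sprague Dawley rats without genetic modification, 75 to 85 days old when bought, housed singly and pair fed a Lieber-DeCarli liquid diet, which was their only food and drink. Control rats received the diet without ethanol. Ethanol rats were brought gradually to 9% ethanol by volume, had it for 16 days, and were still on it when the brain was taken (0 h of withdrawal), so that no ethanol-free interval separates drinking from tissue collection. Brains were taken after decapitation under isoflurane and no perfusion is described, so the tissue includes the blood in its vessels.

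The hippocampus is needed for forming memories and takes part in the control of mood and stress, and its neurons are among those on which ethanol acts directly, through GABA-A and NMDA receptors and several ion channels. Chronic intake also exposes the tissue to acetaldehyde and acetate, to a changed supply of fuels and to changes in the vessels and glia that serve neurons. A piece of dissected hippocampus holds pyramidal and granule neurons, interneurons, astrocytes, microglia, oligodendrocytes and their precursors, vessels and the blood inside them, and it lies against the choroid plexus and ependyma of the lateral ventricle, the thalamus and the overlying cortex.

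Read pairs counted on genes numbered between 31480318 and 39200777 per control rat (median 35298097) and between 31885996 and 40179533 per ethanol rat (median 35649217). Of the 38445 genes in the files, 16370 passed the filter on low counts (more than 0.5 CPM in at least 6 of the 12 libraries) and were tested. CPM is the number of read pairs of a gene relative to the scaled (TMM) size of its library, and it is not corrected for gene length, so it is compared here between rats and not between genes. Markers of the expected cell types were present in every rat, among them Slc17a7 (536 to 1220 CPM) and Prox1 (109 to 150 CPM) of excitatory neurons, Aqp4 (584 to 827 CPM) of astrocytes, Csf1r (72.5 to 90.8 CPM) of microglia and Mbp (5180 to 8110 CPM) of oligodendrocytes. The CA1 marker Fibcd1 was at or near 0 in all 12 rats, as was Otx2 among the choroid plexus markers. All control libraries carried index sequences of the first set and all ethanol libraries those of the second, so that this technical difference and the diet cannot be told apart.

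The ethanol group was the more uneven of the 2 groups. On the first principal component of log2 CPM, which held 32.4% of the variance, ethanol rats 1 and 4 stood at 0.70 and 0.44, whereas no other rat was above 0.11. On the second, with 21.5%, ethanol rats 5 and 6 stood highest, at 0.51 and 0.42. Ethanol rats 1, 4 and 6 also had the highest summed level of the 19 choroid plexus and ependymal genes tested, at 8180, 5770 and 7810 CPM, while the other 3 ethanol rats lay between 2690 and 3320 CPM and control rats between 1970 and 3660 CPM. Ethanol rats 1 and 4 were in addition the highest of all rats in thalamic genes (2740 and 1720 CPM, followed by control rat 6 at 1620 CPM) and in cortical and striatal genes (1100 and 939 CPM, with all others at or below 708 CPM). Values obtained without ethanol rats 1, 4 and 6, and with the choroid plexus level as a covariate, are therefore given beside several of the genes and groups described here, and not beside all of them. In bulk tissue a lower share of a cell type and less RNA per cell cannot be told apart.

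**Figure D1:**
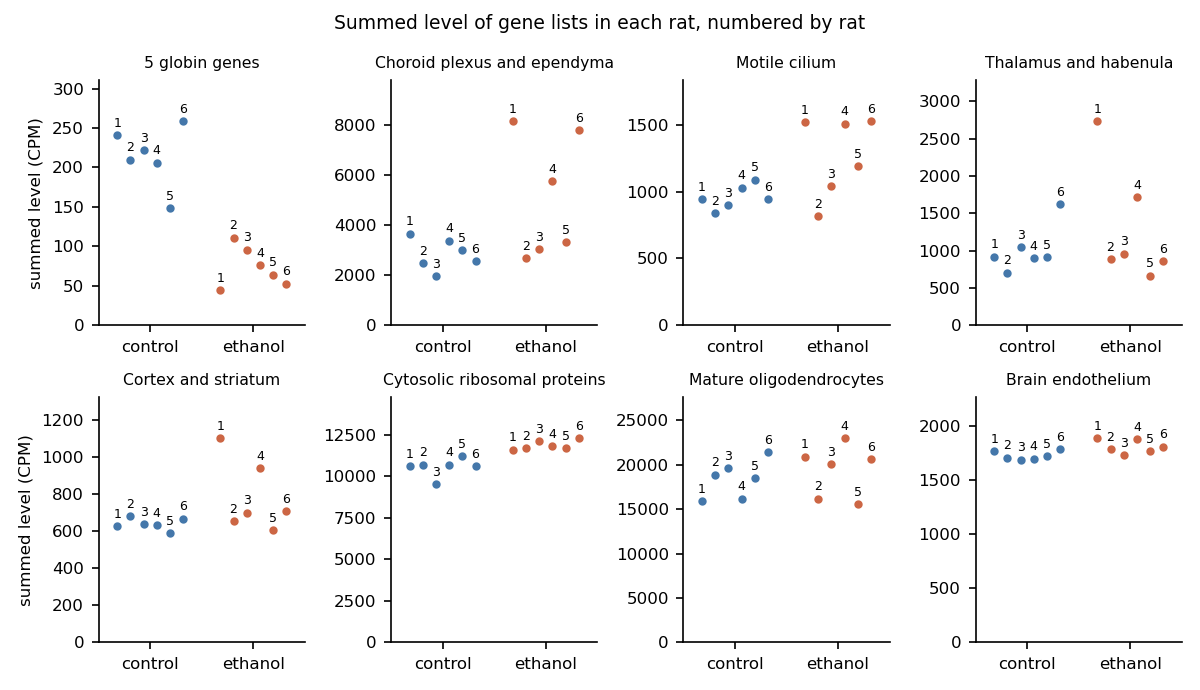
Summed level (CPM) of 8 groups of genes in each of the 6 control rats (blue) and 6 ethanol rats (orange), numbered by rat, on linear axes that start at 0. The globin sum lies between 148 and 259 CPM in control rats and between 44.2 and 111 CPM in ethanol rats, the ribosomal protein sum is above 11500 CPM in ethanol rats alone, and choroid plexus, thalamic and striatal genes are highest in ethanol rats 1, 4 or 6.

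Across the genome, 77 genes (0.47% of those tested) were DE between ethanol and control rats at q < 0.1 by edgeR's quasi-likelihood test with Benjamini-Hochberg adjustment over all genes tested. Of these, 56 (0.342%) were higher and 21 (0.128%) lower in ethanol rats. With upper quartile scaling in place of TMM the numbers were 24 higher and 18 lower, so that the share of higher genes fell from 72.7% to 57.1%. The changes were small, as 23 of the 56 higher genes differed by less than 1.2-fold and 19 of the 77 by more than 1.5-fold, of which 11 were lower in ethanol rats. The median absolute log2 fold change was 0.086 over all genes tested, and the median log2 fold change was −0.002, with 49.4% of genes above 0. At an unadjusted p under 0.05 there were 2450 genes, 1466 higher and 984 lower.

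**Figure D2:**
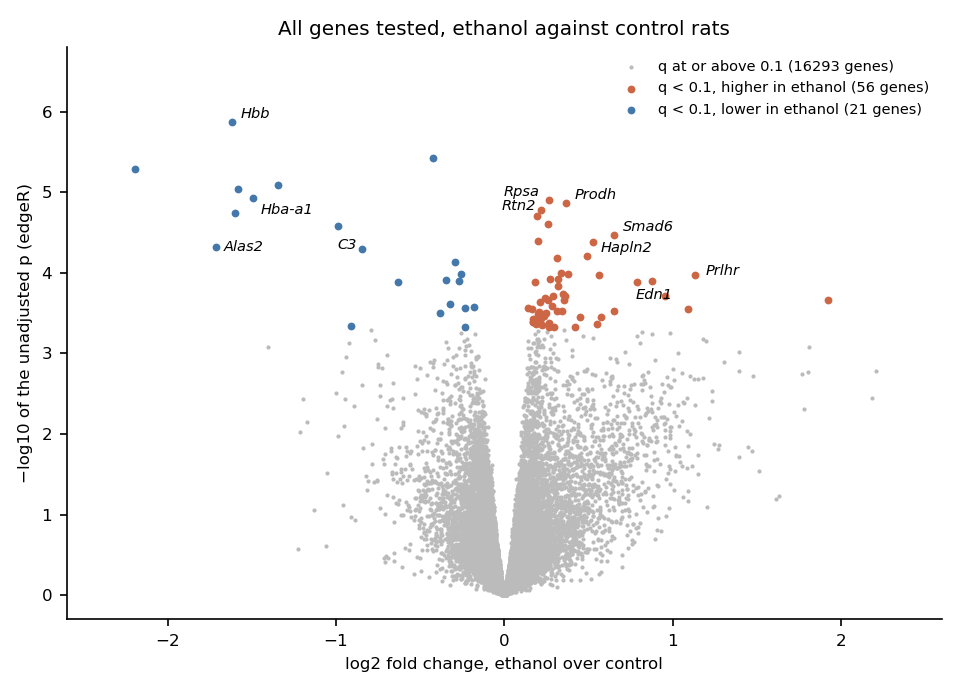
Each point is 1 of the 16370 genes tested, with the log2 fold change of ethanol over control rats on the x axis and −log10 of the unadjusted p on the y axis. The globin genes and Alas2 stand apart on the left at log2 fold changes between −1.71 and −1.34, while most genes that rose lie close to the centre.

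In 65 of the 77 genes every ethanol rat lay on the same side of every control rat, which was so for 219 of all genes tested (1.34%; 0.904% higher and 0.434% lower). For these 65 the two-sided exact permutation test on log2 CPM gave p = 0.00216, the smallest p that 6 against 6 rats allow. That value follows from the separation itself and is no second line of support. The highest permutation p among the 77 was 0.00649. Part of the genes named here were chosen on condition of such separation, which is therefore no added support for them. The number of DE genes depended on single rats. It was 1262 without ethanol rat 5 and 468 without ethanol rat 2, but between 15 and 44 without any other rat, and 13 genes were DE in each of the 12 fits that left out a rat. These were Hbb, Hbbl1, Hba-a1, Hba-a2, Hba-a3, Prodh, Rpsa, Rtn2, Sppl2b, the noncoding RNA gene LOC100911177 and 3 genes without a symbol. With the choroid plexus level as a covariate 1 gene (Hbb) had q < 0.1, and without ethanol rats 1, 4 and 6 there were 7, of which 5 were among the 77. All 77 genes kept their direction in both fits. They did so in every other fit that tested them (a filter at 1 CPM left 74 of them). All these fits reuse the same rats or a part of them, so a kept direction is no independent support.

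The largest falls among DE genes with a symbol were in 5 globin genes and Alas2. Red blood cells and their precursors carry alpha and beta globin mRNA, and Alas2 encodes the erythroid form of the enzyme that starts heme synthesis. The letters upstream of the 5 globin genes are shown because these genes fell together. Each stretch is the 120 bases before the start of the gene on the minus strand of GRCr8, from RefSeq, and capitals mark matches on either strand to 3 sets of letters: CCAAT, as in the box of that name; CACCC, also a known globin promoter box; and ATAAA, which resembles the TATA box.
Hbb, chr1:167663722-167663841: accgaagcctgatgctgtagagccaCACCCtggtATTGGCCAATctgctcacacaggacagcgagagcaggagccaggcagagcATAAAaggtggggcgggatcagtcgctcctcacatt
Hbbl1, chr1:167650236-167650355: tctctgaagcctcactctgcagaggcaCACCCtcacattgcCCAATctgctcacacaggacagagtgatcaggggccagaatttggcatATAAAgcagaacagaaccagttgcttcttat
Hba-a1, chr10:15842581-15842700: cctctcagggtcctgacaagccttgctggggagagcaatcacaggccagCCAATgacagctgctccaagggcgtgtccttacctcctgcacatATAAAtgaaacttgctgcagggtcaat
Hba-a2, chr10:15829139-15829258: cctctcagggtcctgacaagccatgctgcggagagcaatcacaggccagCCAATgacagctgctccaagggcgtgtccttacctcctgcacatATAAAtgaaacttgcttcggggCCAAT
Hba-a3, chr10:15816944-15817063: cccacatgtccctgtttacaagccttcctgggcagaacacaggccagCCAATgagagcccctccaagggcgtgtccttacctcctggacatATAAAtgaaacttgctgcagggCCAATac
All 5 stretches hold CCAAT as well as ATAAA, and both beta-type genes also hold CACCC. In the same window of all 33469 promoters of the table, CCAAT was found in 19.9%, CACCC in 29.5% and ATAAA in 21.5%. In Hbb 1 of its CCAAT matches on the reverse strand adjoins the match on the forward strand. The stretches of Hba-a1 and Hba-a2 are identical at 115 of 120 positions. The genes themselves are near-identical copies too, and pairs with more than 1 place in the genome were left out of the counts, so the value of each single copy is uncertain.

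Hbb (chromosome 1, 168971269 to 168972680 in Rnor_6.0, the build of all gene coordinates given here), which encodes beta globin, ranged from 57.4 to 101 CPM in control rats with a median of 86.2, and from 16.2 to 39.5 CPM in ethanol rats with a median of 26.7. Every ethanol rat was below every control rat, and the means differed 3.07-fold (log2 fold change, log2FC, = −1.62 with SE 0.20, edgeR q = 0.0223). Hba-a1 (chromosome 10, 15602794 to 15603649), which encodes alpha globin, fell from 70.3 ± 12.4 CPM (SD, n = 6) to 24.9 ± 9.62 CPM (log2FC = −1.50 with SE 0.22, edgeR q = 0.028). Hba-a2, Hba-a3 and the beta-type gene Hbbl1 fell alike, with log2 fold changes of −1.58, −1.60 and −1.34.

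Summed over these 5 genes, the globin level averaged 214 ± 38.0 CPM under control diet and 73.9 ± 25.7 CPM under ethanol, a ratio of 2.9. The ethanol rat with the lowest sum was rat 1 (44.2 CPM) and that with the highest was rat 2 (111 CPM), still below the lowest control rat, rat 5, at 148 CPM. Alas2 (chromosome X, 23167576 to 23187356) was at 1.41 to 2.82 CPM in control and 0.285 to 1.06 CPM in ethanol rats, again without overlap (log2FC = −1.71 with SE 0.29, edgeR q = 0.0457), on counts between 10 and 102. The log2 fold change of Hbb was −1.29 with the choroid plexus level as a covariate (q = 0.092 by edgeR) and −1.34 without ethanol rats 1, 4 and 6 (q = 0.057). For the other globin genes and Alas2 it lay between −1.35 and −1.07 in these fits, with q between 0.14 and 0.46.

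Of the 10 genes tested in the list of iron, heme and globin genes (Hbbl1 is not in it), 5 fell (0.128% of all genes did), 1 rose (0.342% did), and the median log2 fold change was −0.83. The gene that rose was Fth1 (chromosome 1, 226030940 to 226033228), which encodes the heavy chain of the iron store ferritin, from 1330 ± 62.8 to 1660 ± 147 CPM (log2FC = 0.32 with SE 0.06, edgeR q = 0.0627), with no overlap between the groups. A processed copy, Fth1-ps5, was also DE (1.89 ± 0.293 against 2.78 ± 0.246 CPM, q = 0.0994, chosen after its value was seen), and its counts may contain reads of Fth1.

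**Figure D3:**
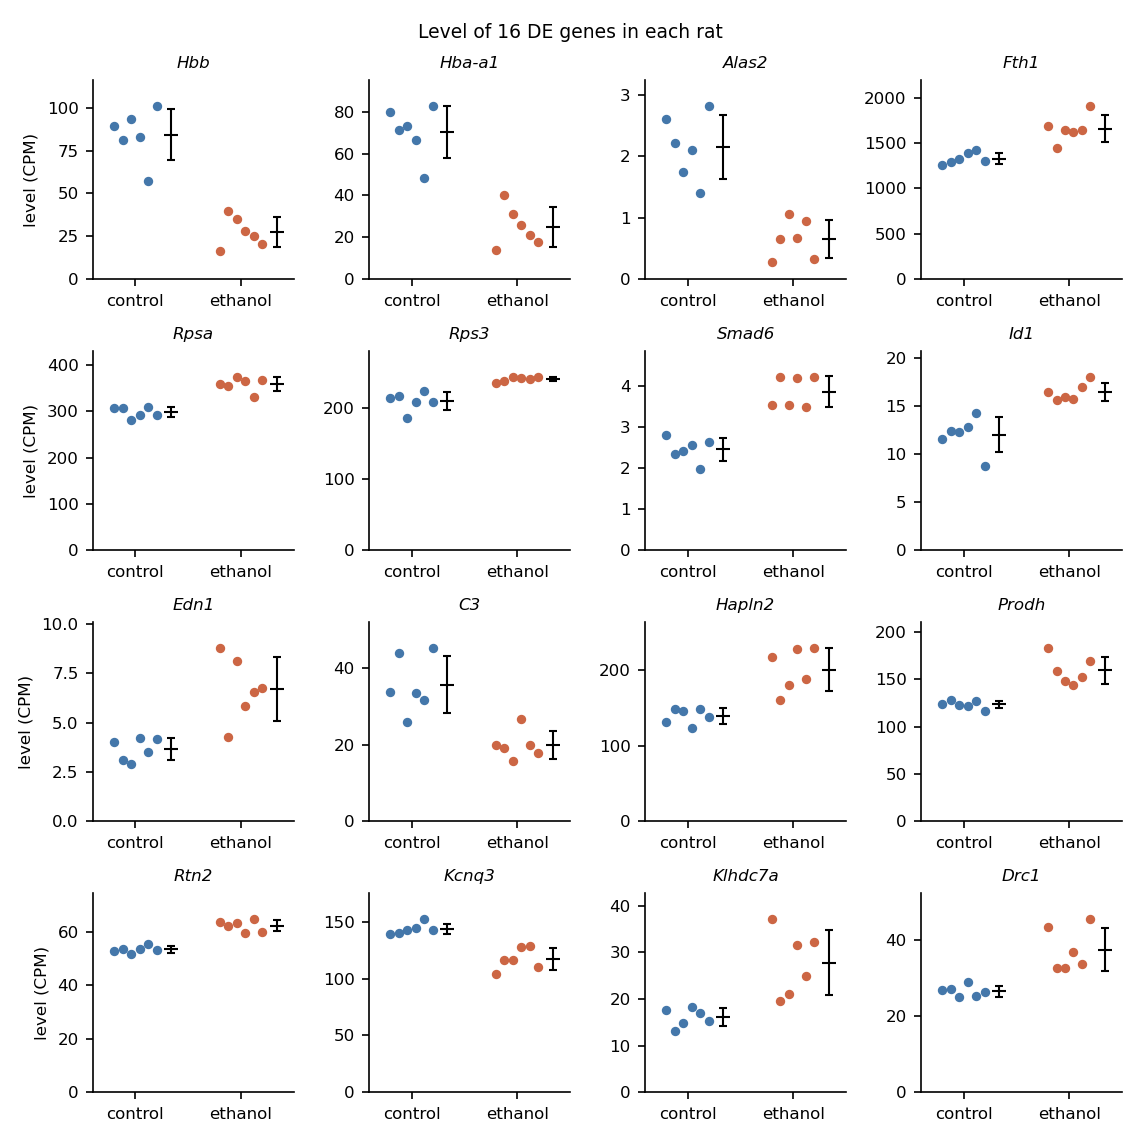
Level (CPM) of 16 DE genes in each control rat (blue) and ethanol rat (orange), on linear axes that start at 0, with the mean and SD over 6 rats in black beside the points. Globin genes and Alas2 separate the groups by about 3-fold, for example Hbb at 84.3 against 27.5 CPM, whereas the groups lie much closer together for Rpsa (298 against 359 CPM), Rps3 and Kcnq3.

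A second coordinated pattern was a small rise in the genes for the proteins of the cytosolic ribosome, the particle that translates mRNA. All 72 cytosolic ribosomal protein genes tested had a log2 fold change above 0 (49.4% of all genes did, and 50.6% were below 0), with a median of 0.17 and a range from 0.01 to 0.35. Of these, 9 were DE, all higher, against 0.342% of all genes, 63 had an unadjusted p under 0.05, and in 30 every ethanol rat was above every control rat (0.904% of all genes). Their summed level lay between 9540 and 11200 CPM in control rats and between 11600 and 12300 CPM in ethanol rats.

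Rpsa (chromosome 8, 128806053 to 128809987), which encodes a small-subunit protein also known as the laminin receptor, ranged from 282 to 310 CPM in control and from 331 to 374 CPM in ethanol rats, and rose 1.2-fold (log2FC = 0.27 with SE 0.04, edgeR q = 0.028). The other 8 were Rps3, Rps23, Rpl13a, Rpl19, Rpl26, Rpl27, Rpl34 and Rpl36a, with log2 fold changes between 0.17 and 0.24 and q between 0.083 and 0.0968. Of these 9, only Rpsa stayed at q < 0.1 when any of the 12 rats was left out. The windows below are shown because mRNAs of this class are known for a pyrimidine tract at their start. Each holds the 20 bases before the annotated start and the first 10 of the transcript in GRCr8, from RefSeq, and capitals mark runs of 7 or more C or T.
Rpsa, chr8:128728859-128728888, plus strand: cccgTCCTTTCCgcgctaccctggaacggg
Rps3, chr1:163195767-163195796, minus strand: TTCCTTTCCTTTCagcggcgcgcggcagca
Rps23, chr2:23814497-23814526, plus strand: ccttgtgggTCCTTCCTgCCTCTCTTCTCT
Rpl13a, chr1:104748904-104748933, minus strand: caagaCCTCTTCCTTTCCTaggcggctgcc
Rpl19, chr10:83519044-83519073, plus strand: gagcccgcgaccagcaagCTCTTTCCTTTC
Rpl34, chr2:221962274-221962303, minus strand: gcccgCCCCTTCCTTTTCCTCTTCCgggga
Rpl26, chr10:54109672-54109701, plus strand: gagatctcgtgtcaacttacagaaccggaa
Rpl36a, chrX:102059429-102059458, plus strand: aggcaccgcctataaacttccgttgctgct
Of the 8 windows found for the 9 genes, 6 hold such a run. Over all ribosomal protein genes tested with a promoter in the table, 44 of 56 (78.6%) hold it, against 18.5% of all 33469 promoters. The run is thus a feature of the whole family and does not set apart the 9 genes that were DE.

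The rise of the Cytosolic ribosomal proteins kept its size in the other fits. The median log2 fold change was 0.14 with the choroid plexus level as a covariate and 0.17 without ethanol rats 1, 4 and 6, with all 72 genes above 0 in both, but no gene had q < 0.1 in either (42 and 48 genes had an unadjusted p under 0.05). The number of DE members was 1 when any control rat or ethanol rat 1, 3, 4 or 6 was left out, 22 without ethanol rat 2 and 44 without ethanol rat 5. Ribosomal protein mRNAs are short, and gene length moved with the fold change over all genes. When genes were ranked by exonic length in 5 groups, the median log2 fold change was 0.04, 0.01, −0.00, −0.02 and −0.03 from the shortest to the longest, and the shortest group (up to 1598 bases) held 26 of the 56 higher genes. The part of gene length in the ribosomal protein values was not tested.

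**Figure D4:**
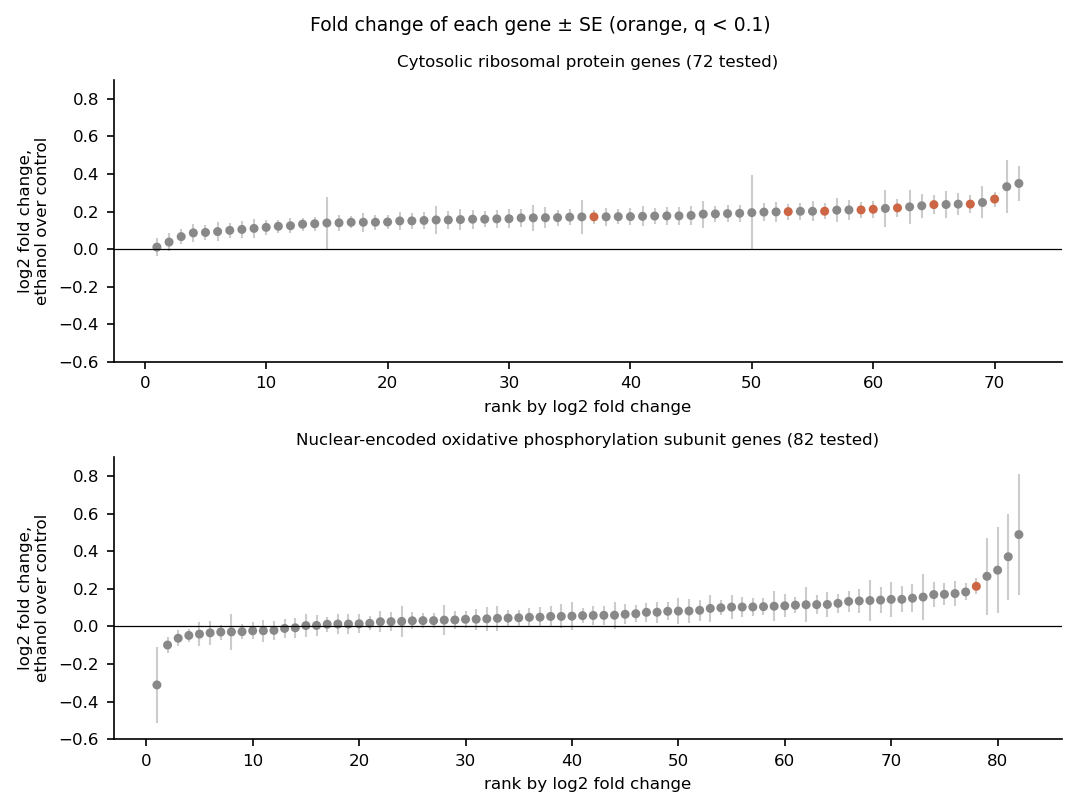
Log2 fold change ± SE of each cytosolic ribosomal protein gene (upper panel, 72 genes) and each nuclear-encoded oxidative phosphorylation gene (lower panel, 82 genes), in order of fold change, with DE genes in orange. The ribosomal protein genes lie above 0 throughout, around a median of 0.17, while the oxidative phosphorylation genes lie lower, around a median of 0.058 with 68 of 82 above 0.

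Genes of other expression machinery held no DE gene. Mitochondrial ribosomal protein genes had a median log2 fold change of 0.03 with 49 of 72 above 0 and none DE, and proteasome subunits a median of −0.01 with none of 38 DE. Core spliceosome components and SR and hnRNP splicing regulators had medians of −0.01 and −0.07, again with none DE. Of the SR and hnRNP splicing regulators, 49 of 60 were below 0, 11 were lower at an unadjusted p under 0.05, and in 2 every ethanol rat was below every control rat (0.434% of all genes). Without ethanol rats 1, 4 and 6 their median was −0.03, with 21 of 60 above 0. Among the latter, Hnrnpa1, a packaging protein of nuclear RNA, had group means of 358 and 318 CPM (log2FC = −0.17, q = 0.127 by edgeR).

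Among genes of energy metabolism, few were DE. Prodh (chromosome 11, 87058478 to 87075785), which encodes proline dehydrogenase, the mitochondrial enzyme that begins proline breakdown, was at 117 to 128 CPM in control rats with a median of 124, and at 144 to 183 CPM in ethanol rats with a median of 156. The groups did not overlap, which its choice required (log2FC = 0.37 with SE 0.06, edgeR q = 0.028). The log2 fold change of Prodh was 0.31 without ethanol rats 1, 4 and 6 (q = 0.057 by edgeR) and 0.30 with the choroid plexus covariate (q = 0.32).

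The 25 genes tested for ketone body and fatty acid oxidation had a median log2 fold change of 0.01. In the list of nuclear oxidative phosphorylation subunits 1 of 82 was DE and higher (0.342% of all genes), namely Cox8a of cytochrome c oxidase (157 ± 9.05 against 182 ± 6.05 CPM, q = 0.0846). Of the Nuclear oxidative phosphorylation subunits, 68 of 82 had a log2 fold change above 0, with a median of 0.06, and 13 were higher and 1 lower at an unadjusted p under 0.05 (1466 and 984 of all 16370 genes). With the choroid plexus level as a covariate 46 of 82 were above 0 and the median was 0.01, and without ethanol rats 1, 4 and 6 these were 57 and 0.04.

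Other mitochondrial genes among the 77, chosen after their values were seen, were Idh2 (isocitrate dehydrogenase, 58.4 ± 2.77 against 69.4 ± 5.11 CPM, q = 0.0904), Bckdhb (branched-chain amino acid breakdown, 28.4 ± 1.28 against 34 ± 2.39 CPM, q = 0.0838) and Micos10 (inner membrane organisation, 40 ± 2.45 against 49.8 ± 4.17 CPM, q = 0.0678). For all 3 the groups did not overlap. The log2 fold change of Idh2 went from 0.25 to 0.14 with the choroid plexus covariate and to 0.16 without ethanol rats 1, 4 and 6. Foxred1, an assembly factor of complex I, went the other way, from 71.9 ± 2.31 to 63.4 ± 2.45 CPM (log2FC = −0.18, q = 0.0904 by edgeR).

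Of the 12 ethanol, acetaldehyde and acetate genes tested none was DE, and their median log2 fold change was −0.01. Aldh2, the main mitochondrial acetaldehyde dehydrogenase, had group means of 72.7 and 89.7 CPM (log2FC = 0.30 with SE 0.08, edgeR q = 0.138), and ethanol rat 5, at 74.5 CPM, lay within the control range. The log2FC of Aldh2 was 0.11 with the choroid plexus covariate (q = 0.90) and 0.13 without ethanol rats 1, 4 and 6 (q = 0.67). Aldh7a1 had means of 45.1 and 50.5 CPM (q = 0.236). Glycolysis and glucose transport genes had a median of −0.05 (0 of 22 DE) and cholesterol and fatty acid synthesis genes one of 0.01 (0 of 26), with the transcription factor Srebf1 at 93.8 against 110 CPM (q = 0.21).

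A few genes of BMP signalling and of vessels rose. Bone morphogenetic proteins signal through SMAD proteins to induce the Id genes, which block differentiation factors, and the inhibitory SMAD6, which feeds back on the pathway. Endoglin (Eng) is a co-receptor found mainly on endothelium. Of 45 genes tested in the list of BMP, TGF-beta, SMAD and ID genes, 4 were DE, all higher (0.342% of all genes were), while the median of the list was 0.05. Those genes were Smad6, Id1, Id3 and Eng.

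Smad6 (chromosome 8, 68897746 to 68967221) was at 1.97 to 2.79 CPM in control and 3.48 to 4.21 CPM in ethanol rats, a rise of 1.57-fold without overlap (q = 0.0395 by edgeR). Id1 (chromosome 3, 148214623 to 148216715) ranged from 8.74 to 14.3 CPM in control and from 15.6 to 18 CPM in ethanol rats (log2FC = 0.45 with SE 0.09, q = 0.0933). Id3 went from 41.6 ± 2.55 to 51.7 ± 4.87 CPM (log2FC = 0.31 with SE 0.06, q = 0.0904), with ethanol rat 5 inside the control range. Eng went from 21.9 ± 2.42 to 27.9 ± 1.53 CPM without overlap (log2FC = 0.35 with SE 0.07, q = 0.0838). None of the 4 had q < 0.1 with the choroid plexus level as a covariate or without ethanol rats 1, 4 and 6, although their log2 fold changes there, 0.25 to 0.62, were near those with all rats.

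Of 30 brain endothelial and barrier genes 22 were above 0, with a median of 0.08, and Eng alone was DE. The tight junction gene Cldn5 had means of 59 and 67 CPM (log2FC = 0.18, q = 0.141 by edgeR). Edn1 (chromosome 17, 22136814 to 22143745), which encodes the vasoconstrictor endothelin-1, rose from 3.66 ± 0.563 to 6.73 ± 1.62 CPM (log2FC = 0.88 with SE 0.17, edgeR q = 0.0627). Its lowest ethanol rat, rat 2 at 4.26 CPM, was just above the highest control rat at 4.24 CPM. The log2FC of Edn1 was 0.68 with the choroid plexus covariate (q = 0.66) and 0.79 without ethanol rats 1, 4 and 6 (q = 0.34). Igfbp7, a secreted protein abundant in vessels, rose from 62.7 ± 2.67 to 75.7 ± 5.6 CPM (q = 0.0627).

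Itgb3, the integrin beta 3 subunit of platelets and endothelium, rose from 0.409 ± 0.134 to 0.883 ± 0.172 CPM (log2FC = 1.09 with SE 0.22, q = 0.0904), on counts of 7 to 43, and was the DE gene among 32 integrins and adhesion adaptors (median 0.02, with 0.342% of all genes higher). The leukocyte adhesion gene Icam1 had means of 4.28 and 5.66 CPM without overlap between the groups (q = 0.126), and 0 of the 15 chemokine and leukocyte adhesion genes were DE. Pericyte, smooth muscle and fibroblast genes had a median of 0.05 (0 of 22 DE), with Higd1b at 2.65 against 3.39 CPM (q = 0.223).

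Genes of the ventricular surface were higher in part of the ethanol group. The choroid plexus makes cerebrospinal fluid and secretes transthyretin (Ttr), and the ependyma beside it bears motile cilia that move the fluid. In the list of Choroid plexus and ependymal markers 18 of 19 genes had a log2 fold change above 0, with a median of 0.89 and an unadjusted p under 0.05 for 18, but none was DE. Ttr ranged from 962 to 2030 CPM in control and from 1230 to 4760 CPM in ethanol rats (log2FC = 0.89 with SE 0.32, edgeR q = 0.234). The 3 ethanol rats above all control rats were rats 1, 4 and 6, and the other 3 lay between 1230 and 1700 CPM. Slc4a5 and Kcnj13, a bicarbonate transporter and a potassium channel of this epithelium, had log2 fold changes of 1.18 and 1.2 (q = 0.112 for each). Without ethanol rats 1, 4 and 6 the median of the list was 0.19 and 2 of its genes had an unadjusted p under 0.05. Those rats were picked as the ethanol rats highest in this list, so a fall of its median follows from the choice.

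Among Motile cilium and ependymal axoneme genes, a list added after the first results were seen, 81 of 86 were above 0 (49.4% of all genes were) with a median of 0.57, and 2 were DE, both higher (0.342% of all genes). Drc1 (chromosome 6, 27425237 to 27460038), which encodes a part of the nexin-dynein complex that regulates ciliary beating, was at 24.9 to 28.9 CPM in control and 32.6 to 45.3 CPM in ethanol rats (log2FC = 0.49 with SE 0.09, q = 0.0531). Vwa3a, chosen after its value was seen, was at 33.2 to 45.8 and 50.1 to 73 CPM (log2FC = 0.56 with SE 0.10, q = 0.0627). In neither gene did the groups overlap, which the choice of Drc1 required and which was known when Vwa3a was chosen. Summed over the list, ethanol rats 1, 4 and 6 were at 1520, 1510 and 1530 CPM, whereas ethanol rats 2, 3 and 5 were at 815, 1040 and 1190 CPM and control rats at 837 to 1090 CPM. With the choroid plexus level as a covariate the median of the list was 0.06, and Drc1 and Vwa3a had log2 fold changes of 0.29 and 0.42 (q = 0.30 and 0.66). Ift20, an intraflagellar transport gene named after its value was seen, had 28.9 ± 0.472 against 34 ± 2.46 CPM (q = 0.0904), with ethanol rat 5 at 29.3 CPM inside the control range.

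The dissection markers of neighbouring regions varied with single rats. All 18 thalamic and habenular genes were above 0 (median 0.36), but 1 had an unadjusted p under 0.05 and none was DE. The direction of the Thalamic and habenular markers turned in the other fits, with 4 of 18 above 0 both with the choroid plexus covariate (median −0.15) and without ethanol rats 1, 4 and 6 (median −0.26). The thalamic gene Prkcd was at 569 CPM in ethanol rat 1, 289 CPM in ethanol rat 4 and 209 CPM in control rat 6, against 45.7 to 114 CPM in the other rats. The log2FC of Prkcd was 0.96 with all rats, −0.36 with the covariate and −0.47 without those 3 rats. Of the 19 Cortical and striatal markers 14 were above 0 (median 0.49), and the median was 0.12 with the covariate and 0.01 without those rats. The striatal gene Adora2a, an adenosine receptor, was highest in ethanol rats 1 and 4, at 33.9 and 23.3 CPM, and was at 3 CPM in ethanol rat 5.

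Complement and microglia genes held 1 DE gene, which fell. C3 (chromosome 9, 9721137 to 9747084), the central protein of the complement cascade, fell 1.8-fold, from 35.6 ± 7.42 to 19.8 ± 3.69 CPM (log2FC = −0.84 with SE 0.14, edgeR q = 0.0457). Control rats ranged from 26 to 45.1 CPM and ethanol rats from 15.8 to 26.7 CPM, where ethanol rat 4 overlapped the lowest control rat. Without ethanol rats 1, 4 and 6 the log2 fold change was −0.96 (q = 0.14), and with the choroid plexus covariate it was −0.92 (q = 0.30). C4b, also of the complement cascade, had means of 2.7 and 1.41 CPM (log2FC = −0.94 with SE 0.23, q = 0.126). The list of 22 complement and MHC class II genes had a median of −0.06. The C3 gene is likewise the DE member of the 24 reactive astrocyte genes, whose median was 0.05.

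Microglia genes had a median of −0.08 with 16 of 22 below 0 and none DE. Fcrl2 (10.7 against 5.35 CPM, q = 0.141) and Itgam, a complement receptor subunit (19.6 against 15.5 CPM, q = 0.228), had the smallest p among them. Cd244l1 (chromosome 13, 89959091 to 89995993), a receptor gene of the SLAM family of leukocytes, fell from 4.85 ± 0.512 to 3.12 ± 0.495 CPM without overlap (log2FC = −0.63 with SE 0.12, edgeR q = 0.0627). None of 36 TNF, NF-kB and Toll-like receptor genes (median −0.02), 27 gp130, JAK, STAT and SOCS genes (median −0.06) or 37 interferon-induced genes (median −0.07) was DE. The median of the Interferon-induced genes was −0.31 with the choroid plexus covariate (4 of 37 above 0) and −0.33 without ethanol rats 1, 4 and 6 (3 of 37). In the second of these lists Jak2, a kinase of cytokine receptors, was lower in every ethanol rat (45.7 against 40.3 CPM, log2 fold change −0.18, q = 0.132), and in the first Traf3 and Rela had q = 0.278 and 0.282. Dhx58 and Ifi27 were the interferon-induced genes with the smallest p (q = 0.233 and 0.244).

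Of the stress genes in the lists, Atf5 alone was DE. Atf5 (chromosome 1, 100807821 to 100812410), a transcription factor of the integrated and mitochondrial stress responses, rose from 66 ± 3.58 to 84.7 ± 9.99 CPM (log2FC = 0.36 with SE 0.07, edgeR q = 0.0822), and was the DE gene of 26 endoplasmic reticulum and integrated stress genes (median 0.01). Ethanol rat 5, at 71.1 CPM, lay below control rat 5, at 73 CPM. Of 18 p53 targets 13 were above 0 (median 0.13), none DE. The growth arrest gene Gadd45g had means of 6.6 and 9.52 CPM without overlap (log2FC = 0.53, q = 0.112) and the cell cycle inhibitor Cdkn1a means of 14 and 24.8 CPM (log2FC = 0.82, q = 0.133). Cdkn1a was highest in ethanol rat 1, at 40.8 CPM, and its log2FC was 0.30 with the choroid plexus covariate and 0.38 without ethanol rats 1, 4 and 6. For Atf5 these were 0.31 and 0.30 (q = 0.66 and 0.34). Of 24 glucocorticoid-induced genes (median 0.12) the metallothionein Mt2A had the smallest p, at 13.6 against 23.9 CPM (log2FC = 0.82, q = 0.108). The median of the list Glucocorticoid receptor and its induced genes was −0.03 with the covariate, with 10 of 24 above 0, and 0.01 without those 3 rats. None of the 24 Oxidative stress and NRF2 targets (median 0.04) was DE, and their median was −0.05 both with the covariate and without those 3 rats, with 10 of 24 above 0 in each. In that list the lipid peroxide reductase Gpx4 was at 161 against 184 CPM without overlap (q = 0.108). Cytosolic heat shock genes had a median of −0.03 (0 of 21 DE), with Hspb8 at 26.7 against 32.8 CPM (q = 0.181).

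Among Immediate early genes, which neurons induce within minutes of activity, Jund alone was DE. It rose from 57.5 ± 2.38 to 73.3 ± 8.35 CPM (log2FC = 0.35 with SE 0.07, q = 0.0822), with ethanol rat 4 at 59.4 CPM inside the control range. The list had a median of 0.32 with 18 of 24 above 0, and its summed level was 1610 CPM in ethanol rat 5 against 668 to 983 CPM in the other 11 rats. Without ethanol rat 5 the median was 0.06 and 12 of 24 genes were above 0. The late activity-regulated genes had a median of −0.03 (0 of 23 DE). Ccn1, a matrix-associated signalling protein that is also a YAP target, was at 23.1, 10.4, 7.5 and 5.44 CPM in ethanol rats 5, 1, 3 and 6, at 3.1 and 1.48 CPM in ethanol rats 2 and 4, and at 0.761 to 3.38 CPM in control rats (log2FC = 2.21 with SE 0.56, q = 0.132), and no gene of the 19 YAP-TEAD genes (median 0.12) was DE. Jag2 (chromosome 6, 137711144 to 137733331), a ligand of Notch receptors, rose from 41.3 ± 0.938 to 46.8 ± 1.45 CPM without overlap (q = 0.0627) and was the DE gene of 49 Wnt and Notch genes (median 0.07).

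Of the oligodendrocyte lineage genes 2 were DE, both higher (0.342% of all genes were). Hapln2 (chromosome 2, 187395104 to 187402076), a link protein of the matrix at nodes of Ranvier made by oligodendrocytes, ranged from 123 to 149 CPM in control and from 160 to 229 CPM in ethanol rats (log2FC = 0.53 with SE 0.09, edgeR q = 0.0418). The highest ethanol rats were rats 6, 4 and 1. Without them the log2 fold change was 0.34 (q = 0.23), and with the choroid plexus covariate it was 0.38 (q = 0.62). Olig1, a transcription factor of the lineage, rose from 114 ± 5.97 to 138 ± 11.6 CPM (log2FC = 0.26 with SE 0.06, q = 0.0994). Its log2FC was 0.19 without ethanol rats 1, 4 and 6 (q = 0.51).

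Of 24 mature oligodendrocyte and myelin genes 19 were above 0 (median 0.12), and their summed level overlapped widely, at 15900 to 21400 CPM in control and 15600 to 23000 CPM in ethanol rats. The median of the Mature oligodendrocyte and myelin markers was 0.04 with the covariate and −0.05 without ethanol rats 1, 4 and 6, where 9 of 24 were above 0. Tf, the iron carrier transferrin made by these cells, had means of 854 and 1090 CPM (q = 0.299), and its log2FC went from 0.35 to 0.04 with the covariate and to −0.02 without those rats. Precursor genes had a median of 0.10 with Olig1 as the DE member of 14. At an unadjusted p under 0.05, 3 of the 14 were higher and 3 lower, and the latter included the matrix gene Tnr (117 against 96 CPM, log2FC = −0.29, or −0.17 with the covariate, q = 0.198) and the receptor gene Gpr17 of maturing precursors (38.8 against 31.5 CPM, log2FC = −0.30, q = 0.209). Hapln2 was also the DE gene of 47 genes of the extracellular matrix and perineuronal nets (median 0.04), in which Hapln1, the link protein of perineuronal nets, had the opposite sign at 71 against 52.8 CPM (log2FC = −0.43 with SE 0.11, q = 0.129). Homeostatic astrocyte genes had a median of 0.04 (0 of 18 DE), where the gap junction gene Gja1 was at 409 against 356 CPM (log2FC = −0.20, q = 0.119) and Mlc1, a perivascular endfoot protein, was higher in every ethanol rat at 323 against 346 CPM (log2FC = 0.10, q = 0.195).

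Receptors and ion channels are known sites of direct ethanol action. The single DE gene of the receptor, channel and release lists was Kcnq3 (chromosome 7, 106714479 to 107009639), which encodes a subunit of the M-type potassium channel that limits repetitive firing. It ranged from 139 to 152 CPM in control and from 104 to 129 CPM in ethanol rats, without overlap (log2FC = −0.29 with SE 0.05, edgeR q = 0.0568). Its log2 fold change was −0.25 with the choroid plexus covariate (q = 0.66) and −0.26 without ethanol rats 1, 4 and 6 (q = 0.14). Of 48 potassium channel genes 35 were below 0, with a median of −0.07. Kcnmb4, an auxiliary subunit of the BK channel that ethanol opens, had means of 39.6 and 47.2 CPM (log2FC = 0.25 with SE 0.06, q = 0.108).

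None of 15 GABA-A receptor subunits (median −0.05), 29 ionotropic glutamate receptor genes (median −0.04) or 9 metabotropic glutamate and GABA-B receptors (median 0.01) was DE. Grik2 of the kainate receptors had means of 47.7 and 41.8 CPM (q = 0.203) and Grm5 means of 162 and 141 CPM (q = 0.226). The lists of glutamate and GABA synthesis and transport (23 genes), calcium, sodium and HCN channels (28 genes) and synaptic vesicle release (35 genes) had medians of −0.06, −0.06 and −0.08, with none DE.

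In the remaining receptor lists, none of 43 monoamine, acetylcholine, adenosine and cannabinoid receptor genes (median 0.04) and none of 35 neuropeptide genes (median −0.07) was DE. The median of the list CRF, opioid, NPY and other neuropeptide genes was 0.09 with the choroid plexus covariate (22 of 35 above 0) and 0.05 without ethanol rats 1, 4 and 6 (24 of 35). Gal, which encodes the peptide galanin, had means of 1.2 and 1.97 CPM (log2FC = 0.71 with SE 0.17, q = 0.121), and Npy5r, a receptor of neuropeptide Y, 8.09 and 6.87 CPM (q = 0.187). Protein kinase A and C, adenylyl cyclase and CREB genes had a median of −0.04 (0 of 36 DE), with Adcy5 at 110 against 152 CPM (q = 0.207), highest in ethanol rats 1 and 4 at 231 and 192 CPM. The log2FC of Adcy5 was 0.48 with all rats, 0.17 with the choroid plexus covariate and 0.12 without ethanol rats 1, 4 and 6. The neurotrophin and growth factor genes had a median of 0.06 (0 of 42 DE), with Pdgfa higher in every ethanol rat at 24.7 against 28.7 CPM (q = 0.136). Hippocampal subfield genes (22 tested, median −0.01) and interneuron genes (22 tested, median −0.03) held no DE gene.

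Transcription and chromatin lists were likewise quiet. None of 28 neurogenic and new neuron genes (median −0.10) was DE, but Nhlh1, a transcription factor of newborn neurons, was lower in every ethanol rat (7.97 to 12 CPM against 1.78 to 6.85 CPM, log2FC = −0.96 with SE 0.25, q = 0.132). Histone deacetylases and sirtuins (17 genes, median 0.02, with Hdac5 at q = 0.183), DNA and histone methylation enzymes (33 genes, median −0.03, with Mbd3 at q = 0.212) and clock genes (19 genes, median 0.01, with Nfil3 at q = 0.244) held no DE gene. In all, 39 of the 56 lists had no DE member and 44 had a median within 0.1 of 0. Each single DE member given for a list stands against 0.342% of all genes higher and 0.128% lower.

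Several named genes that were not DE also moved by more than 1.5 times without ethanol rats 1, 4 and 6. The log2 fold change fell toward 0 for Ttr (0.89 to −0.02), Slc4a5 (1.18 to 0.46), Kcnj13 (1.2 to 0.44), Adora2a (1.78 to 0.17), Hspb8 (0.30 to 0.09), Srebf1 (0.22 to 0.13), Pdgfa (0.22 to 0.13), Aldh7a1 (0.17 to 0.10) and Higd1b (0.36 to 0.22). It did so as well for Hapln1 (−0.43 to −0.28), Grm5 (−0.20 to −0.12) and Traf3 (−0.17 to −0.07), whereas it grew for Dhx58 (−0.38 to −0.59). The rats left out were picked for their choroid plexus level, so the falls of Ttr, Slc4a5 and Kcnj13 follow in part from that choice.

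**Figure D5:**
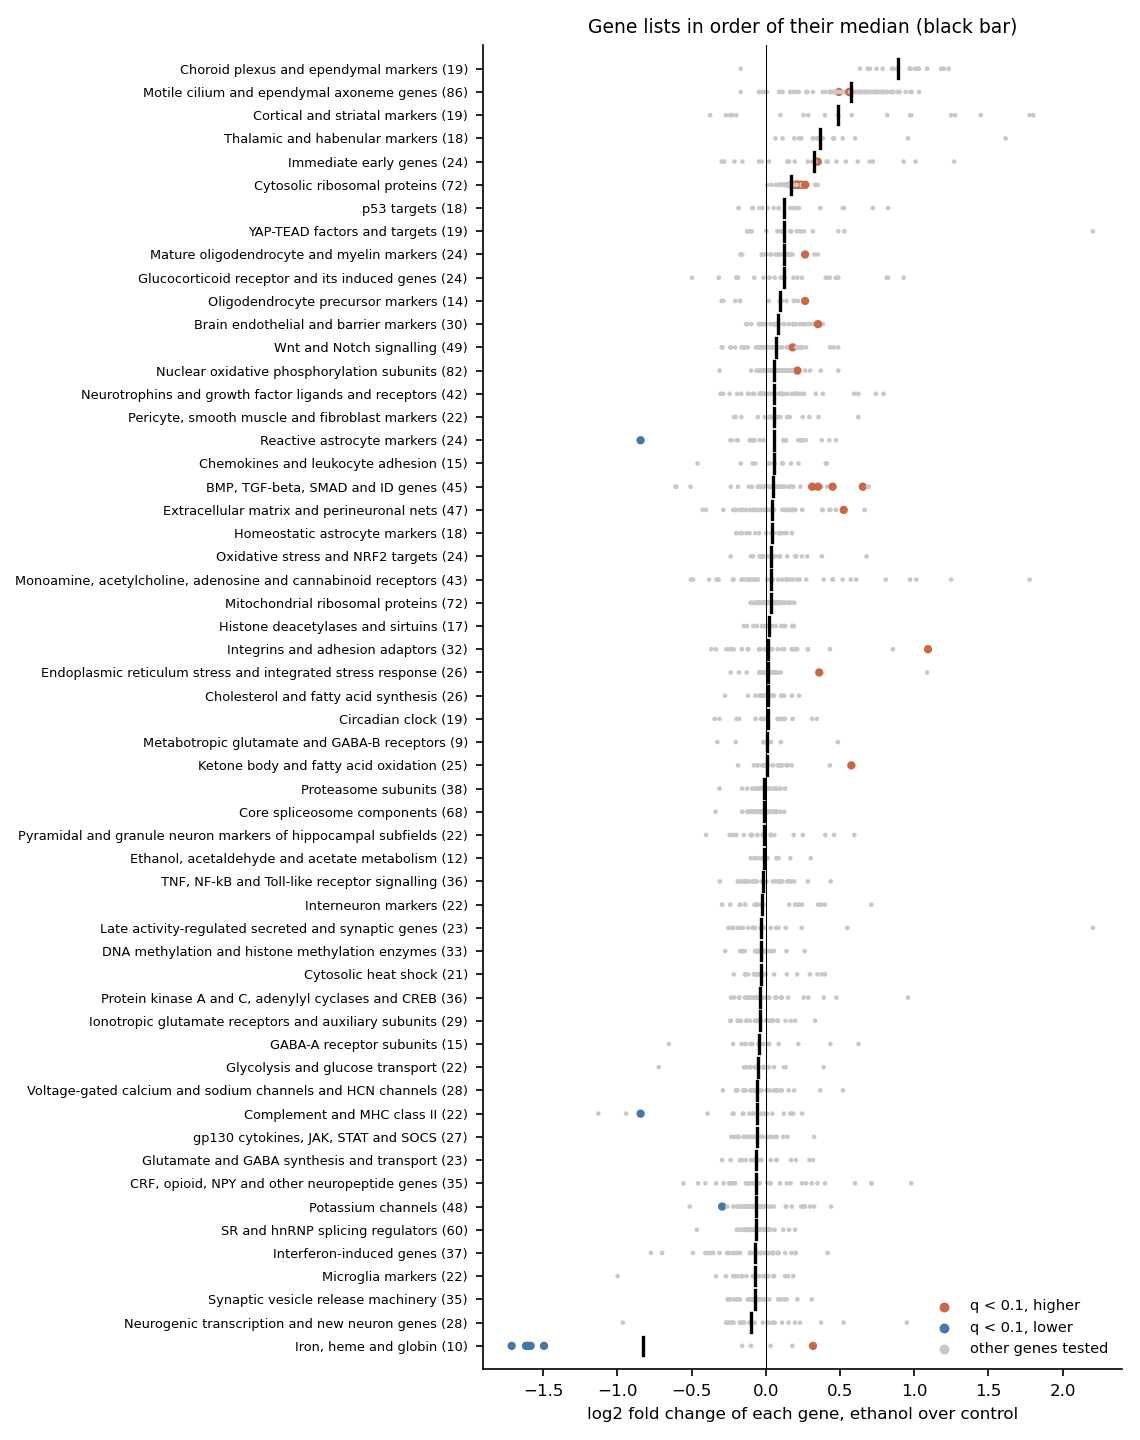
Log2 fold change of every tested member of the 56 gene lists (points) and the median of each list (black bar), in order of the medians, with the number of members tested in brackets and DE genes in orange (higher) or blue (lower). The choroid plexus list has the highest median (0.89) and the list of iron, heme and globin genes the lowest (−0.83), while 44 lists lie within 0.1 of 0.

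Several DE genes belong to none of these lists. Rtn2 (chromosome 1, 80195594 to 80208449), a reticulon that shapes the endoplasmic reticulum, was at 51.8 to 55.4 CPM in control and 59.6 to 64.6 CPM in ethanol rats (log2FC = 0.22 with SE 0.03, edgeR q = 0.0293). Sppl2b (chromosome 7, 11712187 to 11724915), an intramembrane protease, was at 47 to 50.2 and 55.1 to 56.7 CPM (log2FC = 0.19 with SE 0.03, q = 0.0293). Cops6, a subunit of the COP9 signalosome, rose from 93 ± 3.12 to 107 ± 2.27 CPM (q = 0.0418). These 3 increases were of 1.14 to 1.16-fold, and in none of them did the groups overlap, which their choice required.

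Larger increases were found in Klhdc7a, from 16.1 ± 1.95 to 27.8 ± 6.97 CPM (log2FC = 0.79 with SE 0.15, edgeR q = 0.0627), and in Nxn, which encodes the redox protein nucleoredoxin, from 21.1 ± 0.945 to 27.4 ± 3.14 CPM (q = 0.0627). Klhdc7a was highest in ethanol rats 1, 6 and 4, and without them its log2 fold change was 0.45 (q = 0.34). For Nxn it went from 0.38 with all rats to 0.25 without those 3 rats (q = 0.24). Spint1, an inhibitor of serine proteases on epithelia, rose from 11 ± 0.828 to 13.9 ± 0.637 CPM (q = 0.0627). Prlhr, the receptor of prolactin-releasing peptide, rose 2.19-fold from 1.08 ± 0.174 to 2.38 ± 0.741 CPM (q = 0.0627), and is named after its value was seen, as are the others in this paragraph. They are Sinhcaf (1.94-fold, q = 0.0822) of a histone deacetylase complex, Pkdcc (1.57-fold, q = 0.0904), a secreted kinase, and Loxl1 (1.34-fold, q = 0.0994), which crosslinks elastin. The log2 fold change of Pkdcc went from 0.65 to 0.41 without ethanol rats 1, 4 and 6 (q = 0.47).

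Among the lower genes outside the lists, Mpdz (chromosome 5, 99413184 to 99566356), a scaffold protein with many PDZ domains, fell from 176 ± 8.08 to 148 ± 9.08 CPM (log2FC = −0.26 with SE 0.05, edgeR q = 0.0627). Cbx5, which encodes the heterochromatin protein HP1 alpha, fell from 30.4 ± 1.65 to 25.3 ± 1.41 CPM (q = 0.0627), and Wdhd1, a DNA replication protein, from 6.68 ± 0.639 to 5.13 ± 0.179 CPM (q = 0.0904). Hs6st3, a heparan sulfate sulfotransferase, fell from 23.8 ± 1.53 to 19.1 ± 1.69 CPM (q = 0.0898; with the choroid plexus covariate its log2FC went from −0.32 to −0.20) and Ccdc62 from 21.5 ± 0.847 to 18.2 ± 0.952 CPM (q = 0.0904). In all 5 every ethanol rat was below every control rat, which their choice required. Clk4, a kinase of splicing factors named after its value was seen, went from 103 ± 5.05 to 87.9 ± 5.98 CPM with overlap (q = 0.0994). Of the 77 DE genes, 8 had identifiers that could not be paired with a symbol or only with a provisional one, and they are counted but not described.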

How the data were processed

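The deposited files held counts of read pairs per gene. According to the methods, the authors made stranded TruSeq mRNA libraries, 1 rat per library, sequenced them in pairs on a HiSeq, aligned with STAR and counted with featureCounts by strand on the exons of the Rnor_6.0 NCBI annotation, without pairs that mapped to several places. Investigators were not blinded. Counts of the 12 control and ethanol libraries were scaled by TMM, genes were kept that exceeded 0.5 CPM in 6 or more of them, and ethanol was compared with control in edgeR 4.0.16 (quasi-likelihood test, q < 0.1 after Benjamini-Hochberg adjustment). A model of the type the authors describe, limma-voom with surrogate variables on all 18 libraries, was run as an alternative. Its number of surrogate variables, 3, was set here, because the paper does not state one. It was fitted to the 16370 genes kept here, whereas the paper kept more genes. SE is the absolute log2 fold change divided by the square root of F. Single values were also tested by an exact two-sided permutation test on log2 CPM (prior count 2). The fit was checked on simulated counts.

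Symbols came from the RefSeq table of GRCr8, by gene ID, for 29322 of 38445 genes, and coordinates from the files. No 2 libraries of a group agreed within sampling noise. Counting error alone is small at these depths, and the p-values measure the spread between rats.

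Named genes were the 15 with the smallest q in each direction (with a symbol, no overlap between groups and at least 1 CPM in the higher group), list members with q < 0.1, the smallest p in lists with fewer than 2 such members, and cell type markers. Only 14 lower genes met the first condition, and ties at q = 0.0627 among higher genes were broken arbitrarily, which left out Vwa3a and Prlhr. The members and lists were chosen with earlier results of these data known, and the lists of motile cilium and mitochondrial ribosomal genes, the choroid plexus covariate and the fit without 3 libraries were added after the data were seen. Other alternatives were other scalings, filters, tools and covariates and leaving out each rat. A few genes are not reported here.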

Additional observations from a re-analysis of the deposited data

Results flagged for a closer look

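Among the named genes, 28 of 396 groups of 6 rats held a rat whose gap to its nearest neighbour, as a share of the range of the group, was above Dixon's 95% critical value. Chance alone gives about 1 in 20 groups. Each share is given with the level of that rat, and none was explained further.

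In control rats the lowest rat stood apart for Aldh2 (63.6 CPM in rat 3, share 0.766), Npy5r (6.94 CPM in rat 2, share 0.657), Gja1 (354 CPM in rat 6, share 0.74), Rpl27 (58.5 CPM in rat 3, share 0.657), Rpl13a (254 CPM in rat 3, share 0.667), Micos10 (35.2 CPM in rat 3, share 0.676) and Rgs5 (34.2 CPM in rat 5, share 0.82).

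In control rats the highest rat stood apart for Atf5 (73 CPM in rat 5, share 0.76), Mbd3 (73.4 CPM in rat 5, share 0.635), Kmt2a (218 CPM in rat 3, share 0.833), Grm4 (31 CPM in rat 6, share 0.659), Hey1 (16.1 CPM in rat 4, share 0.711), Gbx2 (2.82 CPM in rat 6, share 0.711), Ppp1r1b (91.4 CPM in rat 2, share 0.773), Tcf7l2 (119 CPM in rat 6, share 0.652), Prkcd (209 CPM in rat 6, share 0.631) and Synpo2 (43.6 CPM in rat 6, share 0.741).

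In ethanol rats the lowest rat stood apart for Itgam (10.2 CPM in rat 1, share 0.792), Ift20 (29.3 CPM in rat 5, share 0.676) and C1ql2 (20.4 CPM in rat 4, share 0.675).

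In ethanol rats the highest rat stood apart for Pdgfa (34.1 CPM in rat 1, share 0.761), C3 (26.7 CPM in rat 4, share 0.633), Vip (62.9 CPM in rat 1, share 0.779), Fcrl2 (9.59 CPM in rat 5, share 0.712), Tac3 (35.7 CPM in rat 4, share 0.835), Gbx2 (11.5 CPM in rat 1, share 0.648), Ddx46 (139 CPM in rat 5, share 0.741) and Myh11 (76.5 CPM in rat 2, share 0.881).

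Several of these values fell in control rats 3, 5 and 6 and in ethanol rats 1, 4 and 5.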

How the results depend on the processing

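The number of DE genes was 77 with the settings reported. It was 18 at q < 0.05 (44.4% higher), 838 with DESeq2, 389 in limma-voom with sample quality weights, 128 in limma-voom on all 18 libraries with 3 surrogate variables, 33 without a filter on low counts (28465 genes tested) and 42 with upper quartile scaling. With the choroid plexus level as a covariate it was 1, and without ethanol rats 1, 4 and 6 it was 7, on fewer rats; 954 and 1286 genes then had an unadjusted p under 0.05. Leaving out 1 rat gave from 15 (ethanol rat 6) to 1262 (ethanol rat 5), with 468 without ethanol rat 2; without any other single rat it was 17 to 44. The cause of these differences was not tested. Replicate numbers belonged to different animals, and the labels do not say whether they match the rats that were pair fed. A pairing can thus be neither assumed nor set aside. Deviations of same-numbered rats correlated at −0.325 to 0.406, with 3 of 6 above 0.1. Of the control rats, 3 correlated best with the ethanol rat of their own number. With the replicate block 0 genes had q < 0.1 in edgeR, although 2329 had an unadjusted p under 0.05, among them all 77. All of the 77 genes that were tested kept their direction in every alternative, and no named gene that was called changed sign. The alternatives reuse the rats by which these genes were called, or a part of them, so a kept direction is no independent support. Of the list medians, 1424 values stayed within the spread between rats and 32 moved beyond it. With 6 rats a group, small changes near the threshold cannot be ranked.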
